A study of Mus musculus with 6 samples.

Results

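The BMP pathway and Id genes were described in mouse retina at embryonic day 16.5. The members were 10 genes, chosen by name: the Id genes Id1, Id2, Id3 and Id4, the ligands Bmp4 and Bmp7, the type I receptors Bmpr1a and Bmpr1b, and the inhibitory Smads Smad6 and Smad7. Each matched 1 row of a table of 55487 counted genes, and all 10 were among the 17275 genes that passed a filter on low counts. RNA was sequenced from 3 libraries labelled cKO, of genotype Foxp1 fl/fl with Six3-Cre, and 3 labelled control, of genotype Foxp1 fl/fl without Cre. Every animal therefore carried the loxP-flanked Foxp1 alleles, the strain was given as C57BL/6 throughout, and all animals came from 1 litter. Six3-Cre uses regulatory sequence of Six3 that is active in the developing retina, so other cells in the dissected tissue need not recombine. Each library held both retinas of 1 animal. The labelled sexes were 2 females and 1 male under the control label and 1 female and 2 males under the cKO label. Foxp1 encodes a forkhead factor, and the comparison concerns retinal transcription with and without it. Values of single libraries are given in the order 1, 2 and 3 within each label.

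BMP ligands are secreted dimers that bind type I and type II receptor kinases, and the type I receptors phosphorylate Smad1, Smad5 and Smad9, which enter the nucleus with Smad4. The Id genes are well-known direct targets of this route. Id proteins have a helix-loop-helix domain but no DNA-binding region, and they hold E proteins away from proneural factors. In the eye, Bmp4 is known for dorsal retina identity and lens induction and Bmp7 for early eye growth, and both type I receptors act in the retina.

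The labels were contradicted in places, and this bears on every direction given here. Foxp1 was at 72.2 ± 3.36 CPM (counts scaled to a common library size, SD, n = 3) in the libraries labelled cKO and 46.0 ± 4.85 CPM (SD, n = 3) in those labelled control (log2 fold change 0.65, edgeR adjusted p 4.6e-05), the reverse of what a knockout label states. Counts of the whole gene do not separate the deleted exons, which are not named in the sources used here. For cKO against control, the authors' deposited table has Foxp1 at -0.60 on the log2 scale. Sex-linked transcripts went against the labelled sex in 2 libraries, those labelled control 2 and cKO 2. With the sexes of the 2 groups exchanged number for number, they matched in 6 of 6 libraries. Foxp1, these transcripts and the sign of the deposited table thus all fit libraries whose group labels are exchanged, in which case every direction given here would turn. In edgeR with the exchanged sexes as a covariate, Foxp1 had a log2 fold change of 0.60, the deposited size with the sign turned. Whether the labels were exchanged was not tested, and the groups were kept as labelled. Total counts ran from 23707761 to 25714620 per library. Of the defining retinal genes, Pax6 was at 634 to 679 CPM and Rax at 530.2 to 564 CPM over the 6 libraries. Atoh7, a factor needed for retinal ganglion cells, was the 1 gene of the retinal list that passed, at 437, 406 and 458 CPM under the control label and 545, 550.1 and 504 CPM under the cKO label (log2 fold change 0.30, edgeR adjusted p 0.018). Its part in the members' values was not tested. Fold changes are libraries labelled cKO over libraries labelled control.

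None of the 10 genes passed an edgeR adjusted p of 0.05, against 0.781% of all tested genes (0.295% higher and 0.486% lower under the cKO label). At an unadjusted edgeR p of 0.05, 4 of 10 passed (Id2, Id3, Id4 and Bmpr1b, all higher), against 16.5% of all tested genes in either direction and 7.83% higher. The authors' deposited table gives an adjusted p for 7 of the members, none under 0.05, against 8.97% of genes with an adjusted p. The settings of that fit are not given, so its shares and sizes may not be like for like with these. Sign aside, each member's deposited fold change was nearer to edgeR with the exchanged sexes as a covariate than with genotype alone. Bmpr1b was at -0.19, beside 0.19 with that covariate and 0.23 with genotype alone. For Bmp4 these were 0.11, -0.11 and -0.03. Of the 10, limma-voom called 0, and DESeq2 called 0 of the 6 to which it gave an adjusted p, with none given to Bmp4, Bmp7, Bmpr1b and Smad6. The members' median log2 fold change was 0.05, with 6 above 0 and 4 below, beside a median of 0.00073 and 50.1% above 0 over all tested genes. The 2 members whose groups did not overlap were Id3 and Id4, against 20.1% of tested genes not overlapping in either direction (10.8% higher and 9.29% lower under the cKO label). In bulk tissue, fewer expressing cells and less RNA per cell cannot be told apart.

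**Figure D1:**
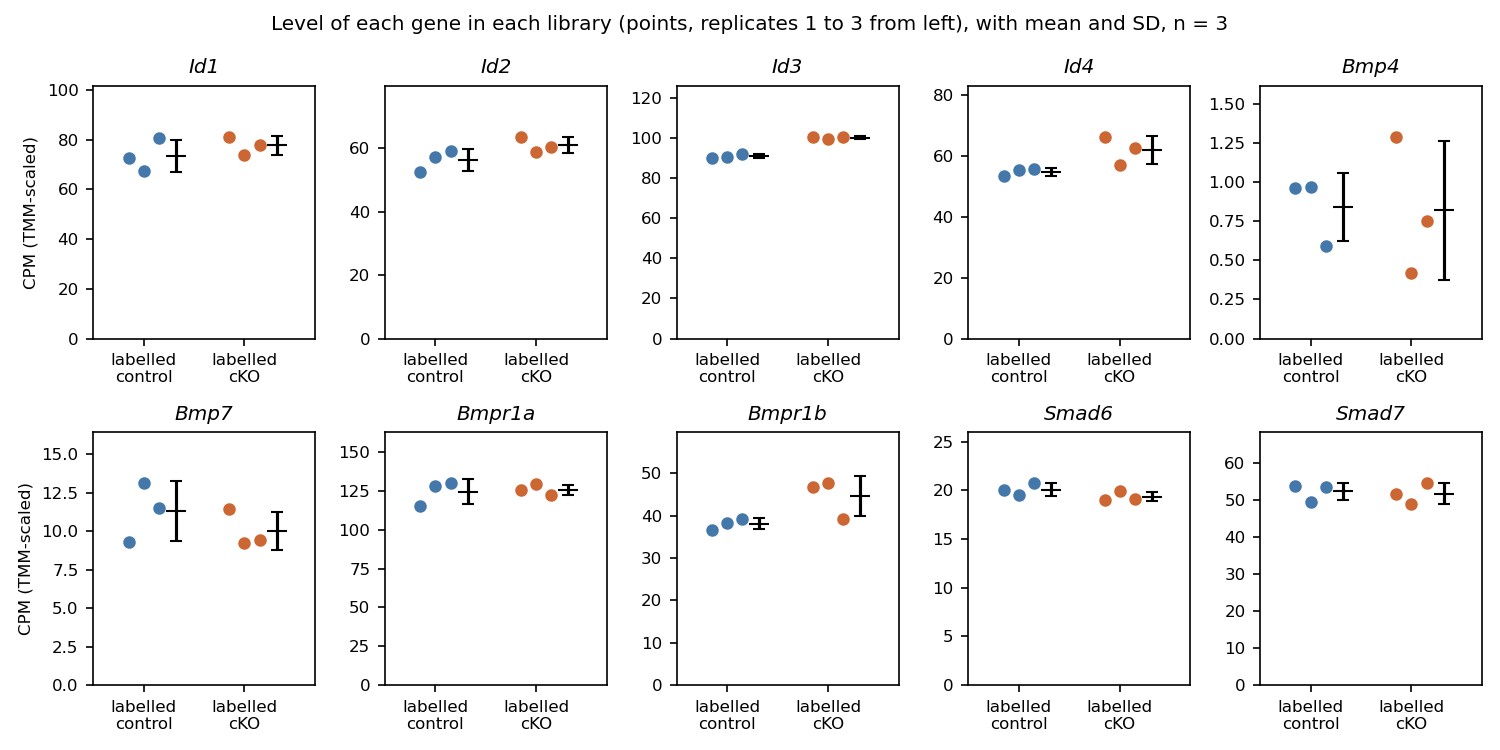
Level of each of the 10 genes in CPM (TMM-scaled, each vertical axis from 0) in the 3 libraries labelled control (blue) and the 3 labelled cKO (orange), with the mean and SD of each group. Id3 and Id4 are the panels in which every orange point lies above every blue one, by small margins.

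All 4 Id genes lay slightly higher in the libraries labelled cKO, by 5.71% to 13.2%, and none passed the test. Id3 had the tightest values. This gene (ENSMUSG00000007872, chr4:136143497-136145755, plus strand, mm10) was at 89.9, 90.6 and 92.0 CPM under the control label, and at 101, 99.1 and 100.2 CPM under the cKO label. The groups were apart by more than their own spread, 99.97 ± 0.776 CPM against 90.8 ± 1.04 CPM (SD, n = 3 each). On the log2 scale this was 0.14 (SE 0.04, edgeR adjusted p 0.106), and the 95% interval of the difference ran from 3.45% to 17.1% higher.

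Id4 (ENSMUSG00000021379, chr13:48261228-48266026, plus strand) was at 53.4, 55.5 and 55.6 CPM under the control label, and at 66.5, 57.1 and 62.6 CPM under the cKO label. The groups did not overlap, but the library labelled cKO 2 lay close to the control range. Its log2 fold change was 0.18 (SE 0.06, edgeR adjusted p 0.105), an interval of 4.49% to 22.6% higher. Exons of Id4 share 82 bases with the antisense gene A330033J07Rik and 171 bases with Gm49291, and whether counting used the strand is not given in the sources used here.

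Id2 (ENSMUSG00000020644, chr12:25093799-25097140, minus strand) was at 52.5, 57.2 and 59.2 CPM under the control label. Under the cKO label it was at 63.7, 58.8 and 60.3 CPM. The ranges overlapped through control 3 and cKO 2. Its log2 fold change was 0.11 (SE 0.05, edgeR adjusted p 0.298).

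Id1 (ENSMUSG00000042745, chr2:152736251-152737410, plus strand) overlapped between the labels. Levels were 72.4, 67.5 and 80.5 CPM under the control label, against 81.2, 73.8 and 77.8 CPM under the cKO label. The library labelled control 3 exceeded both cKO 2 and cKO 3. The log2 fold change was 0.08 (edgeR adjusted p 0.539), with an interval from -2.82% to 14.99%. Leaving out single libraries moved Id1 to 0.02 (without control 2), 0.05 (without cKO 1) and 0.15 (without control 3), and Id2 to 0.07 (without control 1). Summed over the 4 Id genes, the level was 268, 271 and 287 CPM under the control label and 312, 289 and 301 CPM under the cKO label. These sums follow from the genes above and are no further evidence.

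The Id values depended in part on how exon length was treated. The Id genes have short to average summed exons (1160 bases for Id1, 1791 for Id3, 2438 for Id2 and 3849 for Id4, beside a median of 3922 bases over tested genes). After each library's trend of level on exon length was taken out, the log2 fold change of Id1 went to 0.00091, that of Id2 to 0.07 and that of Id3 to 0.07, while Id4 stayed at 0.16. The edgeR adjusted p-values were then between 0.210 and 0.997. Without the 2 libraries whose sex-linked transcripts went against the label, the log2 fold changes were 0.06 for Id1, 0.15 for Id2, 0.14 for Id3 and 0.24 for Id4, with edgeR adjusted p between 0.714 and 0.882. All 4 genes kept a positive sign in all 19 alternatives. Some other cells also express Id genes, among them endothelium. Endothelial genes (10 listed, 7 tested, none called) summed to between 337 and 361 CPM under the control label and between 305 and 314 CPM under the cKO label, most of it Kdr, with Pecam1 and Cdh5 at no more than 1.13 CPM. Microglial genes (10 listed, 8 tested, none called) summed to between 23.5 and 28.8 CPM and between 21.1 and 22.9 CPM. Both sums were lower under the cKO label with no overlap. The tested endothelial genes did not share a direction. Kdr, Cldn5 and Egfl7 had log2 fold changes of -0.17, -0.20 and -0.14. Pecam1, Cdh5, Esam and Flt1 were at 0.08, 0.20, 0.25 and 0.07. The part of either cell type in the Id values was not tested. The authors' deposited table gives all 4 the opposite sign for cKO against control: -0.08 for Id1, -0.13 for Id2, -0.14 for Id3 and -0.19 for Id4, with adjusted p of 0.566, 0.289, 0.130 and 0.118.

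**Figure D2:**
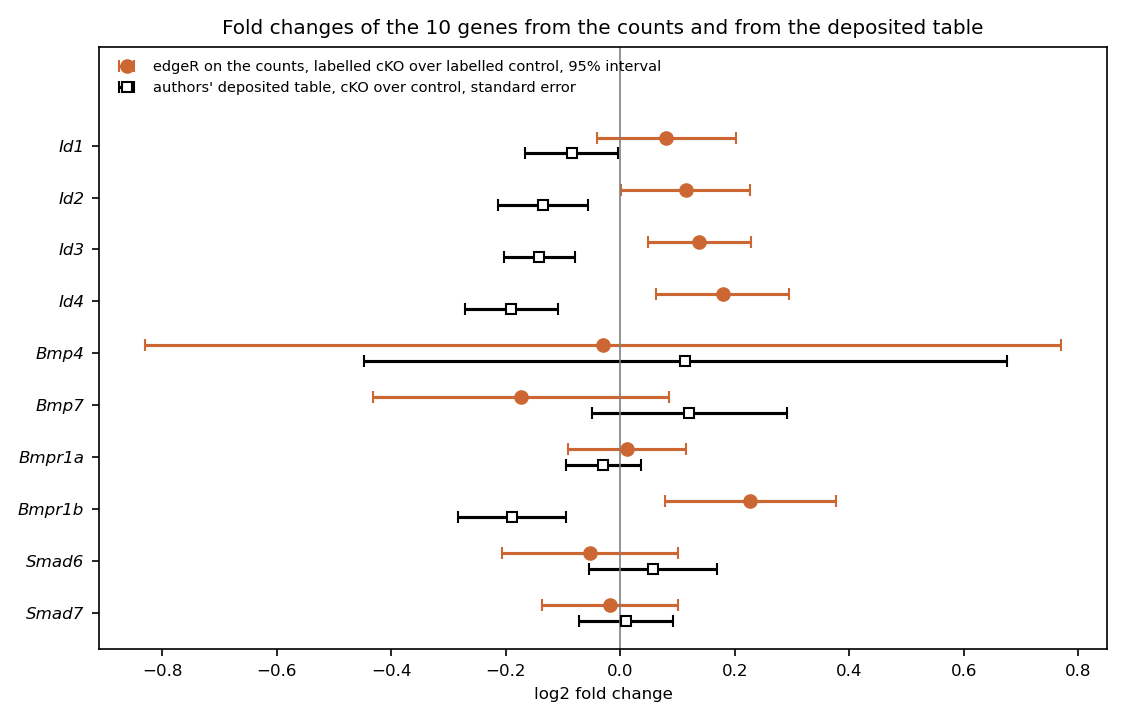
Log2 fold changes of the 10 genes from edgeR on the counts (orange circles, labelled cKO over labelled control, bars are 95% intervals) and from the authors' deposited table (open squares, cKO over control, bars are standard errors). The 2 sources lie on opposite sides of 0 for each gene, and the interval of Bmp4 is the widest. The edgeR fit uses genotype alone, and the settings of the deposited fit are not given.

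Promoter letters are shown for the 2 Id genes in which a GC-rich Smad site was found, since Id genes are read here as BMP targets. RefSeq windows (GRCm38.p6) from 250 bases before to 50 after the start were found for 7 of the 10 members. Id1, Bmp7 and Smad7 had no window and were not searched. The windows found were searched on both strands for 4 motifs. GGCGCC is a GC-rich Smad site and GTCTAGAC the palindromic Smad site. The letters GTAAACA were searched as a forkhead motif, and ATAAACA was searched as its variant. The GC-rich site GGCGCC occurred once each in the windows of Id2, Id4 and Bmpr1a, and in 11.9% of 32851 windows of the same length. G and C made up 63.3%, 73.3% and 79.3% of these members' windows. The 32851 windows were not matched for this share. The forkhead sequences, present in 3.65% and 4.597% of windows, were not found in any window of these 7 members, and Id3 had none of the 4. A match is a description of the letters only. The stretch of Id2 (chr12:25096254-25096342, minus strand) is intronic in a longer annotated Id2 transcript and stops where an annotated exon begins. That of Id4 (chr13:48260866-48261115, plus strand) ends at the base before the RefSeq start. Both are written 5′ to 3′ with GGCGCC in capitals.
Id2: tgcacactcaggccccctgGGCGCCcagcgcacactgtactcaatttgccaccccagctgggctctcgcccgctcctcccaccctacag
Id4: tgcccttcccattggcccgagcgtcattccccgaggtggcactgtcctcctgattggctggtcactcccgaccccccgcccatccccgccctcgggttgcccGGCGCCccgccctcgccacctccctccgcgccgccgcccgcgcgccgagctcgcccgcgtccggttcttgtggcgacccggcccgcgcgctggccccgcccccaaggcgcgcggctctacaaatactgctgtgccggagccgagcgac

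The ligand genes were the lowest members, and neither differed between the labelled genotypes beyond its spread. Bmp4 (ENSMUSG00000021835, chr14:46383520-46390669, minus strand) rested on 23, 24 and 14 counts under the control label and on 33, 10 and 19 counts under the cKO label. These are 0.961, 0.966 and 0.590 CPM against 1.29, 0.415 and 0.749 CPM. The highest and the lowest library both carried the cKO label. The log2 fold change was -0.03 (SE 0.39, edgeR adjusted p 0.980), and at this depth any difference from -43.8% to 70.5% could not be told from none. Its sign turned in 6 of 18 alternatives, from -0.52 without the library labelled cKO 1 to 0.39 without the 2 libraries that went against the labelled sex.

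Bmp7 (ENSMUSG00000008999, chr2:172868012-172940321, minus strand) was at 9.28, 13.1 and 11.5 CPM under the control label. It was at 11.5, 9.22 and 9.39 CPM under the cKO label, so the groups overlapped. Bmp7 had a log2 fold change of -0.17 (SE 0.12, edgeR adjusted p 0.533). It was -0.05 without the library labelled control 2, -0.30 without control 1, -0.28 without cKO 1 and 0.0055 without the 2 libraries that went against the labelled sex. The authors' deposited table lists Bmp4 at 0.11 and Bmp7 at 0.12, with no adjusted p for either.

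Markers of neighbouring tissues also varied between libraries. Pigment epithelium genes (10 listed, 9 tested, among them Tyr, Tyrp1 and Pmel) summed to 80.9, 118 and 73.2 CPM under the control label and to 114, 46.7 and 45.7 CPM under the cKO label. The libraries labelled control 2 and cKO 1 were highest in this sum, and they were also the highest for Bmp4, with control 1 at almost the same Bmp4 level. For Bmp7 the library labelled control 2 was highest. Lens genes (16 listed, 14 tested) summed to between 87.7 and 1357 CPM under the control label and between 30.6 and 373 CPM under the cKO label, with control 3 the highest. Rpe65, a defining gene of mature pigment epithelium, was at or below 0.083 CPM in every library. The part of either tissue in the ligand values was not tested.

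**Figure D3:**
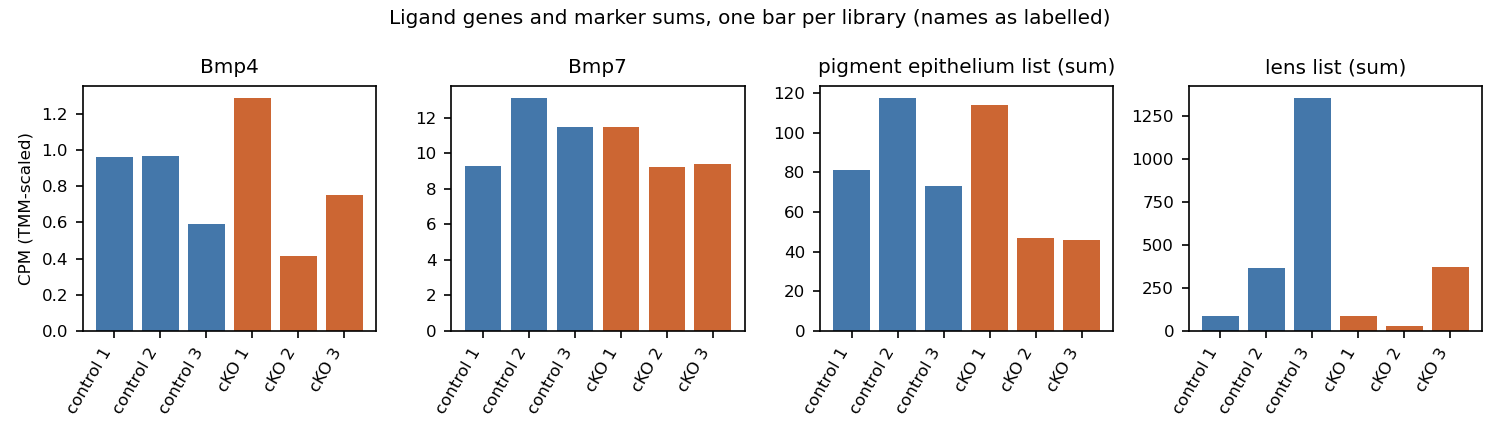
CPM of Bmp4 and Bmp7 and the summed CPM of the pigment epithelium and lens lists, with 1 bar for each library named as labelled (blue control, orange cKO, vertical axes from 0). The libraries labelled control 2 and cKO 1 have the tallest bars for the pigment sum (118 and 114 CPM), and control 3 has the tallest for the lens sum.

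Neither receptor gene passed the test, and the difference between their fold changes was not tested. Bmpr1a, the broadly expressed type I receptor (ENSMUSG00000021796, chr14:34410734-34503341, minus strand), was at 116, 128 and 130.2 CPM under the control label and at 125, 129 and 123 CPM under the cKO label. The cKO values lay within the control range. Its log2 fold change was 0.01 (edgeR adjusted p 0.943), and the interval ran from -6.15% to 8.36%. It was also 0.01 without the 2 libraries that went against the labelled sex, and the authors' deposited table lists it at -0.03. Exons of Bmpr1a share 290 bases with the antisense gene Gm17110.

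Bmpr1b, the second type I receptor (ENSMUSG00000052430, chr3:141837136-142169425, minus strand), had a higher mean under the cKO label. It was at 36.7, 38.2 and 39.3 CPM under the control label, and at 46.8, 47.7 and 39.1 CPM under the cKO label. The libraries labelled cKO 1 and cKO 2 were high, and cKO 3 fell inside the control range. A log2 fold change of 0.23 (SE 0.07, edgeR adjusted p 0.112) resulted, an interval of 5.54% to 29.9% higher. With library totals left unscaled, or with upper quartile scaling, its groups did not overlap. Removal of the exon length trend left it at 0.24 (edgeR adjusted p 0.132), and it was 0.18 (edgeR adjusted p 0.729) without the 2 libraries that went against the labelled sex. It passed with no filter on low counts (edgeR adjusted p 0.030), where 742 of all genes passed. It passed in no other of the 19 alternatives, of which DESeq2 gave it no adjusted p. The authors' deposited table lists it at -0.19 (adjusted p 0.197).

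Beside Bmpr1b, a list of 8 ciliary margin genes summed to 249, 233 and 275 CPM under the control label and to 315, 298 and 254 CPM under the cKO label. The same 2 libraries, cKO 1 and cKO 2, were the highest in both. Most of this sum was Sfrp2, a secreted Wnt modulator, which is also expressed by progenitors, and none of the 8 passed the test. The 8 did not share a direction. Sfrp2, Wfdc1 and Cdo1 had log2 fold changes of 0.27, 0.38 and 0.23. Mitf, Msx1, Ccnd2, Otx1 and Gja1 were at -0.31, -0.26, -0.21, -0.02 and -0.02. Ccnd2 was lowest in the library labelled cKO 2, at 17.4 CPM. The part of ciliary margin tissue in the Bmpr1b values was not tested.

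The inhibitory Smads, which bind activated type I receptors and damp the signal and are themselves induced by it, showed almost the same level in every library. Smad6 (ENSMUSG00000036867, chr9:63953076-64022059, minus strand) was at 20.0, 19.5 and 20.8 CPM under the control label, and at 19.0, 19.9 and 19.1 CPM under the cKO label. Its coefficient of variation over the 6 libraries was 3.28%, the lowest of the 10 genes. The log2 fold change was -0.05 (edgeR adjusted p 0.790), with an interval from -13.3% to 7.23%.

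A palindromic Smad site lies across the RefSeq start of Smad6, and its surroundings are shown because Smad6 is known as a feedback target of the pathway. GTCTAGAC was found in 0.213% of the 32851 windows and, among the 7 members with a window, in that of Smad6 alone. Smad7 had no window and was not searched. The stretch is chr9:64022056-64022119 on the minus strand (GRCm38.p6), 5′ to 3′, with the site in capitals, and its last 4 bases follow the start.
Smad6: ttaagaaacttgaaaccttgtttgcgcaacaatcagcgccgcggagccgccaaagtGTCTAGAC

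Smad7 (ENSMUSG00000025880, chr18:75367529-75395935, plus strand) was at 53.9, 49.5 and 53.5 CPM against 51.5, 48.9 and 54.6 CPM, under the control and cKO labels. The lowest library of each label was number 2. Its log2 fold change was -0.02 (edgeR adjusted p 0.925), with an interval from -9.02% to 7.27%. Without the 2 libraries that went against the labelled sex, Smad6 was at -0.10 and Smad7 at -0.02. The authors' deposited table lists Smad6 at 0.06 and Smad7 at 0.01.

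Levels could be compared between genes per kilobase of summed exon length, a length that counts every annotated exon. On this scale Id1 was the highest member at 65.1 CPM per kb (58.2 to 70.0 over the 6 libraries), followed by Id3 at 53.3 (50.2 to 56.2). Id2 came next at 24.0 CPM per kb, then Bmpr1a at 19.7, Id4 at 15.2 and Smad7 at 11.5. The ranges of these neighbours over the 6 libraries did not overlap. Bmpr1b at 6.92 CPM per kb (6.15 to 7.997) and Smad6 at 6.16 (5.94 to 6.48) could not be ordered, since their ranges overlapped. Bmp7 was at 2.65 CPM per kb and Bmp4 at 0.369 (0.185 to 0.574), so these 2 ligands were the lowest of the 10 per length. The level of Bmpr1a per kb was 2.96, 3.16 and 3.11 times that of Bmpr1b under the control label and 2.51, 2.55 and 2.94 times under the cKO label.

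**Figure D4:**
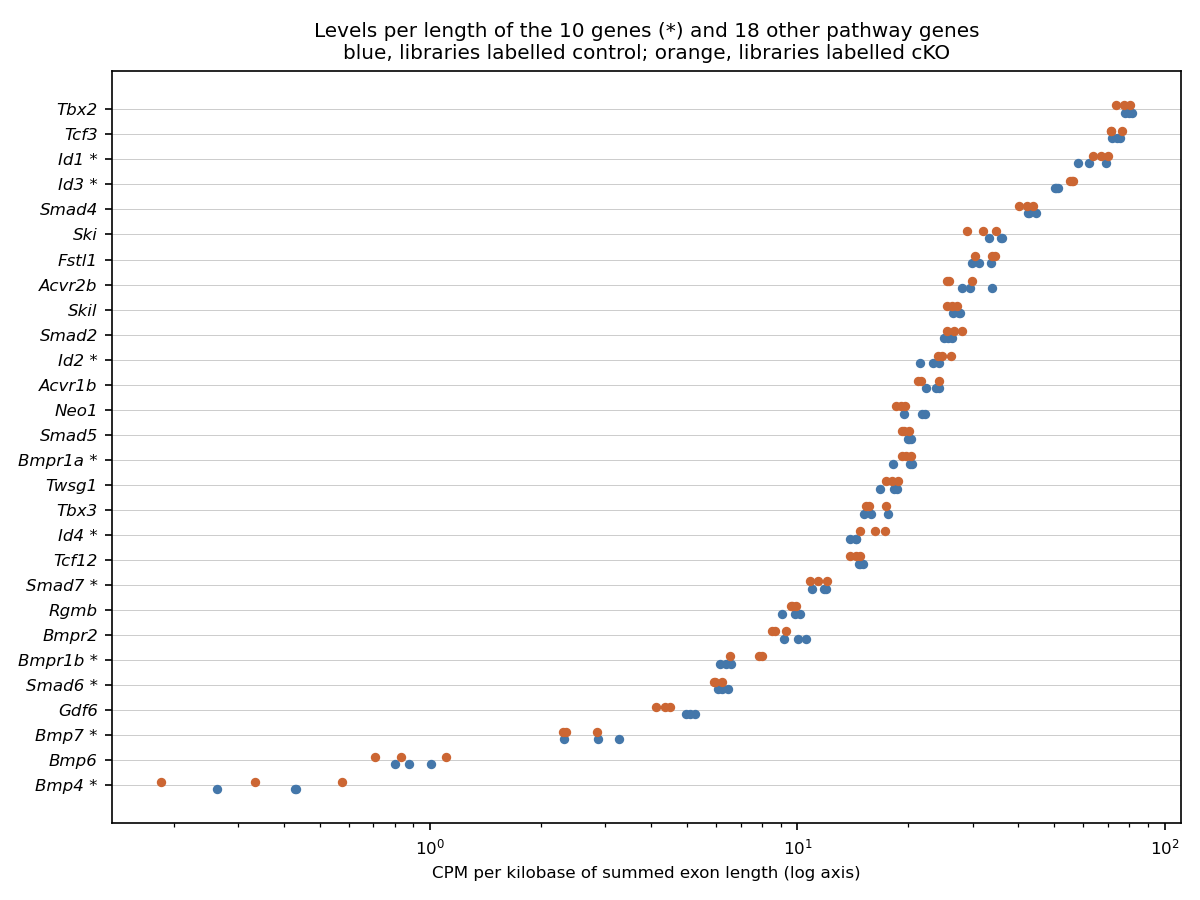
Level per kilobase of summed exon length (log axis) in each library for the 10 genes (starred) and 18 other genes of the pathway lists, with libraries labelled control in blue and cKO in orange. Id1 and Id3 lie near Tbx2 and Tcf3 at the top, and Bmp4, Bmp6 and Bmp7 are the lowest genes.

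The rest of the pathway was read from 9 lists with 76 genes, of which 64 were tested. None passed an edgeR adjusted p of 0.05 and 11 passed an unadjusted edgeR p of 0.05, beside the 16.5% of all tested genes given above. DESeq2 called 1 (Tob2) and limma-voom 0. The lists' median log2 fold change was -0.05, with 22 above 0 and 42 below. The median of the lists was thus opposite in sign to that of the Id genes. The 2 sets were not matched for exon length. Summed exons ran from 1695 bases (Nog) to 27382 (Tcf4) in the tested list genes, and from 1160 to 3849 in the Id genes. The part of exon length in this contrast was not tested.

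Among the other BMP ligands, 4 of 10 were tested. Gdf6, a ligand known for dorsal eye patterning, was the most abundant of them per length at 4.71 CPM per kb, above both Bmp7 and Bmp4. It was at 17.6, 17.95 and 18.5 CPM under the control label and at 15.4, 15.9 and 14.5 CPM under the cKO label. The groups did not overlap, and the log2 fold change of -0.24 had an edgeR adjusted p of 0.130. Bmp6 was at -0.02. The lists hold 6 ligands too low to test, among them Gdf7, with no count in any library.

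Of the 5 further receptors none passed with all libraries and genotype alone. Acvr2b, the highest per length, was at -0.17 on the log2 scale (edgeR adjusted p 0.353), and it passed in 3 of 19 alternatives: no filter on low counts, the replicate number as a block, and the exchanged sexes as a covariate (edgeR adjusted p 0.029, 0.016 and 0.034). Bmpr2, the type II BMP receptor, was at -0.16 on the log2 scale (edgeR adjusted p 0.131), between -0.22 and -0.03 over the 19 alternatives. It passed in 3 of them: that block, that covariate, and control 3 left out (edgeR adjusted p 0.029, 0.043 and 0.021). Bmpr2 was at 178 ± 12.5 CPM in the libraries labelled control and 159 ± 7.42 CPM in those labelled cKO (SD, n = 3 each), with overlapping ranges. The co-receptors had Neo1 at -0.15 (edgeR adjusted p 0.153) and Rgmb at 0.0014. Neo1 passed in 2 of 19 alternatives: the replicate block and control 3 left out (edgeR adjusted p 0.038 and 0.021). Among 16 tested antagonists and extracellular modulators, Fstl1 was at 0.06 and Twsg1 at 0.01, and the pseudoreceptor Bambi, named after its values were seen, was at 0.26 (edgeR adjusted p 0.157). Noggin (Nog) was at 0.804 and 0.507 CPM in the 2 groups, labelled control and labelled cKO.

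None of the 4 signal-transducing Smads passed. Smad4, the shared partner, was at 161 ± 4.69 CPM in the libraries labelled control and 156 ± 6.82 CPM in those labelled cKO (SD, n = 3 each). Smad5 was at 150 ± 1.40 CPM and 146 ± 3.27 CPM (SD, n = 3 each), a log2 fold change of -0.04. Smad9 was low, at 0.469 CPM per kb, and at -0.19 on the log2 scale (edgeR adjusted p 0.729). Of the 9 intracellular regulators, 7 lay below 0, with Ski at -0.13 and Skil at -0.05, both co-repressors of Smads. Tob2, a BMP antagonist of the Tob family named after its values were seen, was nearest to the threshold at -0.21 (edgeR adjusted p 0.055). Tob2 passed with DESeq2 (adjusted p 0.025) and with no filter on low counts (edgeR adjusted p 0.0058). It also passed with the replicate block, the exchanged sexes as a covariate, and control 3 left out (edgeR adjusted p 0.016, 0.030 and 0.023).

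Dorsal retinal transcription factors downstream of BMP and the E proteins differed little. Tbx2, the most abundant of the list per length at 78.6 CPM per kb, had a log2 fold change of -0.04, and Tbx3 was at -0.0094. With all libraries and genotype alone, the E proteins, which Id proteins bind, lay below 0. Tcf3 was at -0.01, Tcf12 at -0.05 and Tcf4 at -0.11 (edgeR adjusted p 0.278, groups not overlapping). The sign was not stable for Tcf3 (-0.05 to 0.0057 over the 19 alternatives) or Tcf12 (-0.07 to 0.06). The TGF-beta and activin branch had 4 of 11 above 0, with Smad2 at 0.05 and Acvr1b at -0.07.

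Over the 6 libraries of 1 litter, which share depth and composition, the levels of the Id genes varied together to differing degrees. As a description on log2(CPM + 1), Pearson's r was 0.87 between Id2 and Id4, 0.86 between Id3 and Id4 and 0.78 between Id2 and Id3. Group means were not taken out, so each r given here also holds the difference between the labels reported above. Id1 was less like the rest, at 0.55 with Id3, 0.62 with Id4 and 0.65 with Id2. Bmpr1b had r of 0.75 with Id3, and Smad6 had r of -0.74 with Id4. Among 10210 protein-coding genes of at least 10 CPM, the patterns most like Id3 were those of Pck2 (0.996), Zfp110 (0.993) and Nab1 (0.993). For Id1 they were Tfrc (0.991), Cfap298 (0.975) and Eri3 (0.972). For Id2 they were Ubxn6 (0.996), Frat1 (0.994) and Pms2 (0.992), and for Id4 Glrx2 (0.979), Armcx3 (0.977) and Psen2 (0.975). They are the highest values among all those genes over 6 points.

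**Figure D5:**
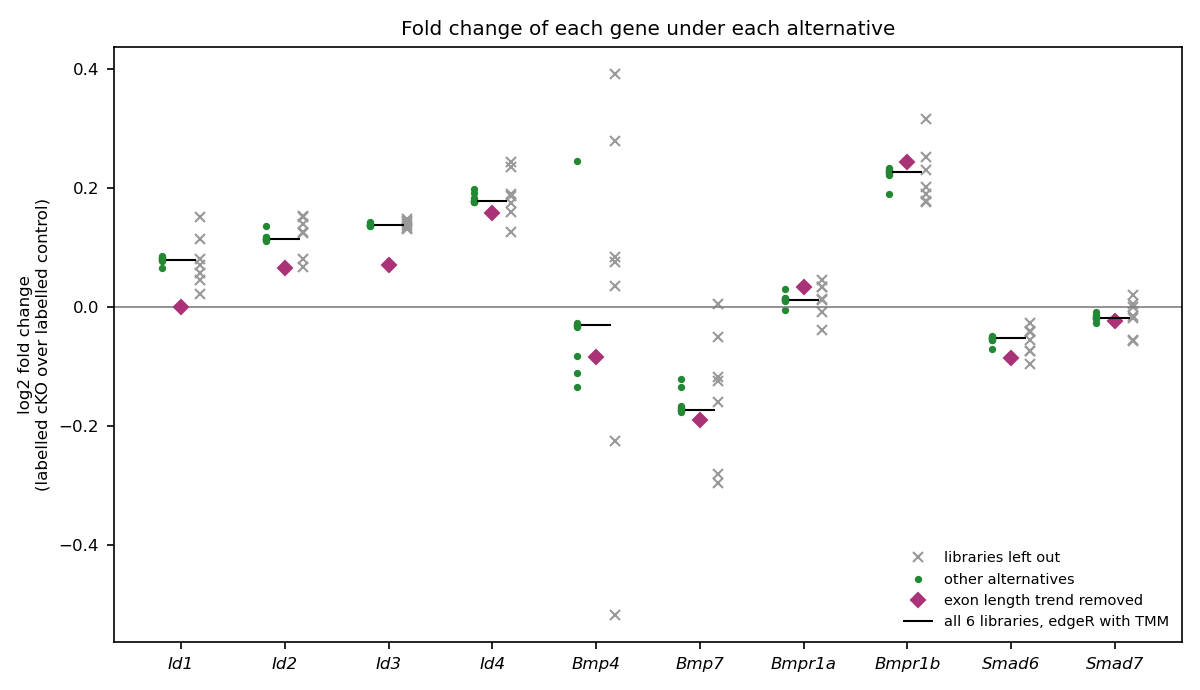
Log2 fold change of each of the 10 genes (labelled cKO over labelled control) with all 6 libraries (black bars), with the exon length trend removed (diamonds), with libraries left out (crosses) and under the other alternatives (dots). The 4 Id genes and Bmpr1b stay above 0 in each alternative, Id1 reaches 0.00091 with the length trend removed, and Bmp4 spreads from -0.52 to 0.39.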

How the data were processed

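The members and gene lists were chosen with earlier results of these data known. The authors deposited whole-number counts per gene. STAR 2.7.6a, featureCounts 1.5.1, cutadapt 2.8, DESeq2 1.32.0 and the build mm10 are named per the submitters' processing notes, with no settings given. The authors' deposited table of cKO against control holds, per the file headers, a mean normalized signal, log2 fold changes with standard errors, a test statistic (a score), p-values and adjusted p-values. Per the labels' protocols, RNA was rRNA-depleted and prepared with a directional kit.

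Columns were matched by the descriptions in the labels. Names came from the deposited table, and positions and summed exon lengths from GENCODE M21 of the same build. Genes were kept by filterByExpr. The test was edgeR 4.0.16 in R 4.3.3 (TMM, genotype alone, robust quasi-likelihood, Benjamini-Hochberg over 17275 genes at 0.05), tested on simulated counts. In these, 38% of the genes changed 1.25-fold and 64% of those changed 1.5-fold were recovered. The members' differences were all smaller than 1.25-fold, and no change that small was simulated. SEs and 95% intervals were derived from each gene's F statistic. CPM uses TMM-scaled totals. Alternatives included DESeq2 1.42.0 (missing adjusted p-values stay missing) and limma-voom (limma 3.58.1). The length trend was removed by lowess offsets of span 0.3. Named were the 10 members, Foxp1, from each pathway list the genes past the threshold or else the 2 highest per kilobase, and the 3 genes most like each Id gene; others named in the text were chosen after their values were seen. Counts of replicates of a label differed beyond sampling noise (chi-square over its degrees of freedom 7.39 to 12.5), so none was a duplicate. Protein sequences were not analysed here. No marker gene other than Atoh7 passed the test. Summed marker levels not given in the report were, for labelled control and labelled cKO, 74.3 to 147 and 111 to 180.0 CPM (erythroid), 63.4 to 117 and 99.1 to 171 CPM (mesenchyme), 62.7 to 70.7 and 58.6 to 69.7 CPM (astrocyte) and 8.69 to 29.4 and 7.81 to 12.5 CPM (muscle).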

Additional observations from a re-analysis of the deposited data

How the results depend on the processing

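Over all genes, 135 passed (51 higher, 84 lower in the libraries labelled cKO). This count was 742 with no filter, 83 with a filter at 1 CPM (40 higher, 43 lower), 10 without robust estimation and 588 with DESeq2. With sex as a covariate it was 113 for the labelled sexes and 746 after the sexes of the 2 labels were exchanged. It was 38 with the exon length trend removed, and 9 without the 2 libraries against the labelled sex. Upper quartile normalization gave 93 (42 higher, 51 lower). With single libraries left out it ran from 19 to 778. With the replicate number as a replicate block it was 1065, of which 432 were higher. The numbers share no stated origin: deviations of same-numbered libraries correlated at 0.16, -0.07 and 0.29, and control 1 correlated best with cKO 2, so they were not taken as pairs. Of the members, 1 passed with no filter (Bmpr1b) and 1 with the replicate block (Id3, log2 fold change 0.14, edgeR adjusted p 0.042), and 0 in each other alternative (DESeq2 gave 4 of them no adjusted p). Of the pathway list genes, 2 passed with no filter, 1 with DESeq2, 4 with the replicate block, 3 with the exchanged sexes, 0 to 3 with single libraries left out, and 0 otherwise. Signs turned for Bmp4 (0.25 with labelled sex as a covariate, 0.39 without the 2 libraries, and -0.52 to 0.28 with single libraries left out), for Bmp7 (0.0055 without the 2 libraries), for Bmpr1a (-0.0040 with labelled sex, and -0.039 to 0.046 with single libraries left out) and for Smad7 (-0.056 to 0.020 with single libraries left out). The cause was not tested. Depth limits Bmp4, which had 10 to 33 counts a library.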
